A study of Rattus norvegicus with 6 samples.

Results

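Matricellular proteins are secreted into the extracellular matrix but mainly signal to cells instead of building the scaffold, and transcripts for 10 of them were examined in primary rat brain microvascular endothelial cells (rBMECs) exposed to homocysteine (Hcy). The members were the rows named Sparc, Sparcl1, Smoc1, Smoc2, Spp1, Thbs1, Thbs2, Tnc, Postn and Mgp in a gene count table, 10 of the 33566 genes listed there. They were chosen with the Hcy response already known, with Sparcl1 and Spp1 differing in opposite directions, so their Hcy and Veh values are given as a description and without p-values. RNA was sequenced from 6 libraries, 3 of rBMECs given 100 μM Hcy for 24 h (Hcy) and 3 of rBMECs given only the water that served as vehicle (Veh). The cells of both groups came from the cortex, as the labels state it, or the forebrain, as the methods of the study do, of SD rats 18 to 22 days old and were used after a single passage, following a selection step in culture against other cell types. The labels also describe a 50 μM Hcy solution, which is the only dose in the methods of the study. Its results name 50 and 100 μM among the doses given to rBMECs in other assays, without stating the dose sequenced. The sources thus do not settle the dose, and the printed dose is that of the treatment line of the labels. Each group is described as biological replicates, but the labels do not say whether each came from its own cell isolation, and p-values given for other genes measure only the spread between these libraries.

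The libraries held between 14024997 and 16764584 reads counted on genes, and 3 counts corresponded to 0.178 to 0.215 CPM (read counts divided by library size, which was scaled with edgeR's TMM factors), a floor that covers counting error only. Of 20 endothelial marker genes, 18 were listed and 17 had enough counts to test, with a summed level of 11459 to 11896 CPM in Hcy and 10030 to 11492 CPM in Veh, led by Vwf. The markers not listed under their names were Pecam1 and Abcb1a. The tight junction gene Cldn5, a defining marker of brain endothelium, had 0 counts in all 6 libraries. The study shows Claudin-5 protein in rBMECs by Western blot. Whether the 0 counts come from the cells or from the mapping or annotation of this gene was not tested. The 13 markers of microglia and macrophages summed to 8.47 to 9.12 CPM in Hcy and 9.02 to 11.5 CPM in Veh, mostly from Cd14, and Cx3cr1, Ptprc, C1qb, P2ry12 and Tyrobp were at 0 in every library. The 7 astrocyte markers summed to 113 to 117 CPM in Hcy and 126 to 151 CPM in Veh, nearly all from Gja1, with Aqp4 and Slc1a2 at 0. Gfap had a mean of 0.177 CPM in Hcy and 0.0425 CPM in Veh, and which cells gave the Gja1 counts was not tested. The 7 oligodendrocyte lineage markers summed to 64.1 to 68.1 and 61.8 to 70.5 CPM, led by Cnp and then Mog. The 7 neuron markers summed to 7.05 to 9.77 and 5.22 to 7.18 CPM, led by Tubb3, with Rbfox3, Snap25 and Map2 at 0.

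The members belong to several protein families. Sparc (osteonectin), Sparcl1 (hevin), Smoc1 and Smoc2 are acidic, calcium-binding glycoproteins of the SPARC family, which modulate growth factor signalling. Of these, Sparc and Sparcl1 bind collagen. Spp1 (osteopontin) is a phosphorylated ligand of integrins and of the hyaluronan receptor CD44. Thbs1 and Thbs2 are thrombospondins, which restrain angiogenesis through the receptors CD36 and CD47 and of which Thbs1 activates latent TGF-beta. Tnc (tenascin-C) loosens the contact of cells with fibronectin, Postn (periostin) links integrins to collagen, and Mgp (matrix Gla protein) inhibits BMP signalling and calcification of vessel walls. In the brain, SPARC and hevin are known for opposite effects on synapse formation, and osteopontin, tenascin-C and thrombospondins are known to be induced after injury.

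Across the members, transcript levels ran from among the highest of all genes to near the floor. Levels were compared between genes as CPM per kilobase of the gene length in the table. In Veh, Sparc was the most abundant member, at 2958 ± 230.1 CPM per kilobase (SD, n = 3), and ranked 9 among the 14603 genes tested. Thbs1 followed at 804 ± 239 CPM per kilobase and rank 103, 3.68 times below Sparc. Together, Sparc and Thbs1 held 91.0% to 94.7% of the members' counts in every library, and all members together held 0.874% to 1.07% of a library's counts.

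The next members lay far lower. Tnc stood at 66.3 ± 11.03 CPM per kilobase in Veh, 12.1 times below Thbs1. Smoc1 stood at 24.2 ± 3.55, Spp1 at 16.9 ± 1.55, Sparcl1 at 7.10 ± 0.614 and Mgp at 2.44 ± 0.375 CPM per kilobase (SD, n = 3 each). The ranges of the Veh libraries did not overlap between neighbours in this order, although Smoc1 exceeded Spp1 by only 1.43 times. Postn was another 28.0 times below Mgp, at 0.0870 CPM per kilobase, and like Thbs2 and Smoc2 it was near the floor. The lowest Veh library of Postn, at 0.0551 CPM per kilobase, was barely above the highest of Thbs2, at 0.0542, and the ranges of Thbs2 and Smoc2 overlapped. In Hcy, Sparcl1 at 27.1 ± 2.65 CPM per kilobase stood above Spp1 at 5.04 ± 0.452, the reverse of their order in Veh.

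**Figure D1:**
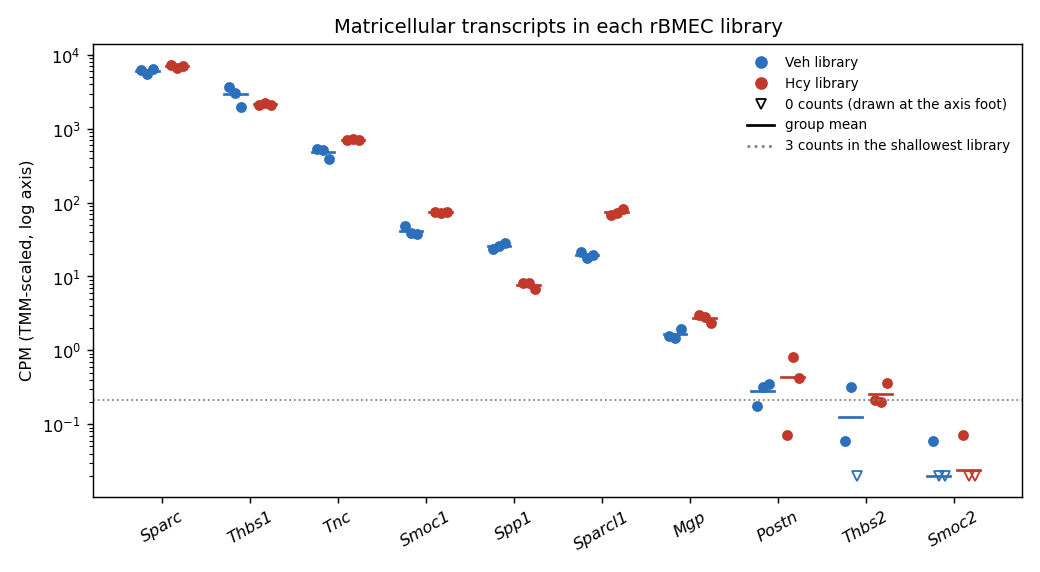
Level of the 10 members in each library, in CPM on a log axis, with Veh in blue and Hcy in red, a bar at each group mean, open triangles for libraries with 0 counts and a dotted line at 3 counts in the shallowest library. Sparcl1 and Spp1 are the members whose groups stand farthest apart, and the groups of Thbs1, Postn, Thbs2 and Smoc2 overlap.

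Sparcl1 and Spp1 were the members that passed the rule for differential expression, which asked for a p of 0.05 or less after Benjamini-Hochberg adjustment over all genes in edgeR's quasi-likelihood test, and for a log2 fold change of 1 or more in either direction. Of the 10 members, 9 had at least 10 counts over the 6 libraries and entered that test, and 1 was called higher and 1 lower. Over all 14603 genes tested, 0.486% were called, 0.253% higher and 0.233% lower in Hcy. With the adjusted p alone, 4 members passed, namely Sparcl1, Smoc1 and Tnc with higher and Spp1 with lower levels in Hcy, against 2.34% of all genes, 1.32% higher and 1.01% lower. In 6 members the 2 groups had no overlap, 5 being higher and 1 lower in Hcy, against 20.1% of all genes tested, 10.8% higher and 9.27% lower. The fitted log2 fold change was above 0 in 7 and below 0 in 2 of the 9 members, with a median of 0.63, and the median of all genes was -0.02. Because the members were chosen on this contrast, nothing is read from these shares. In bulk RNA, fewer cells of a type and less RNA per cell cannot be told apart, which holds for every difference given here.

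**Figure D2:**
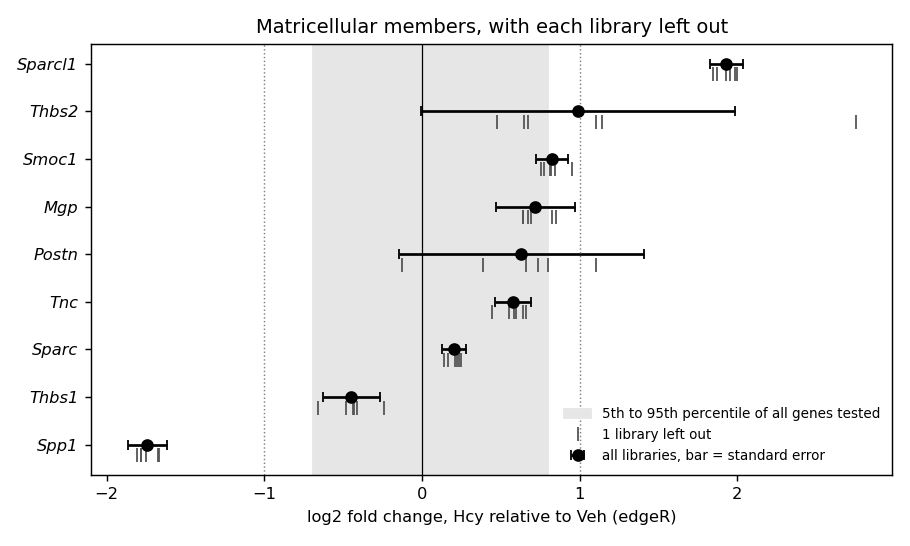
Fitted log2 fold change of the 9 members tested, Hcy relative to Veh, with its standard error (bars), the values with each of the 6 libraries left out (ticks), the span between the 5th and 95th percentiles of all genes tested (grey) and the fold-change threshold (dotted). Sparcl1 at 1.93 and Spp1 at -1.74 lie far outside the grey span from -0.69 to 0.80, Smoc1 at 0.83 lies just outside it, and Thbs2 at 0.99 lies outside it with a bar that, like that of Postn, crosses 0.

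In the SPARC family, Sparcl1 showed the greatest difference. Sparcl1 is listed at chr14:6994190-7025308 on the plus strand, a position that the count table gives without naming a genome build. Sparcl1 measured 21.1, 17.8 and 19.4 CPM in the 3 Veh libraries and 68.4, 71.7 and 82.3 CPM in the 3 Hcy libraries. The groups lay well apart. The means were 19.4 ± 1.68 CPM in Veh and 74.1 ± 7.24 CPM in Hcy (SD, n = 3 each), a ratio of 3.82 and a log2 fold change of 1.93 ± 0.10 (standard error). These levels rested on 279 to 356 counts per Veh library and 953 to 1379 counts per Hcy library. Leaving out single libraries, the log2 fold change stayed between 1.85 and 2.00.

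Sparc, the abundant paralogue of Sparcl1, differed far less. It is listed at chr10:40742400-40764185 on the minus strand. Its level was 6269, 5567 and 6472 CPM in Veh and 7405, 6706 and 6983 CPM in Hcy. Each Hcy library was above each Veh library, but the lowest Hcy and the highest Veh library were close. The means of 6102 ± 475 CPM in Veh and 7031 ± 352 CPM in Hcy (SD, n = 3 each) gave a ratio of 1.15 and a log2 fold change of 0.20 ± 0.07. The adjusted p of Sparc passed the threshold in 1 of 12 alternatives, the fit without Veh replicate 3, where the log2 fold change was 0.25.

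Smoc1, a SPARC family member known as a BMP antagonist in development, was also higher in Hcy. It is listed at chr6:104718512-104877980 on the plus strand, and a microRNA gene annotated inside it, AC122625.1, had 0 counts in all libraries. Smoc1 measured 48.7, 38.7 and 37.6 CPM in Veh against 74.5, 71.7 and 75.4 CPM in Hcy. The Hcy libraries were closely grouped and all above the Veh libraries, of which replicate 1 was highest. The means were 41.6 ± 6.11 CPM in Veh and 73.9 ± 1.95 CPM in Hcy (SD, n = 3 each), a ratio of 1.77 and a log2 fold change of 0.83 ± 0.10, below the fold-change threshold. Leaving out single libraries gave values between 0.76 and 0.95. Smoc2, listed at chr1:56242346-56374120, had 1 count in Hcy replicate 1, 1 count in Veh replicate 1 and 0 counts in the other libraries, and was not tested.

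Spp1 differed in the opposite direction to Sparcl1. The gene is listed at chr14:6673686-6679901 on the minus strand, on the same chromosome as Sparcl1. Spp1 measured 23.3, 25.5 and 28.0 CPM in Veh and 8.04, 8.06 and 6.86 CPM in Hcy. All Hcy libraries were far below all Veh libraries, and the spread within each group was small. The means were 25.6 ± 2.35 CPM in Veh and 7.65 ± 0.686 CPM in Hcy (SD, n = 3 each), so that Veh exceeded Hcy 3.35 times and the log2 fold change was -1.74 ± 0.12. The counts behind these levels were 393 to 405 per Veh library and 112 to 120 per Hcy library. Its value lay between -1.81 and -1.67 when single libraries were left out, and Spp1 and Sparcl1 were called in all 12 alternative analyses. As both were chosen with this difference known, these calls describe the effect of processing alone and are no independent support.

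The ratio of Sparcl1 to Spp1 within a library is given as a description, since the choice of a pair that differed in opposite directions fixes that it separates the groups. Spp1 CPM exceeded Sparcl1 CPM in each Veh library, where the ratio of Sparcl1 to Spp1 was 0.906, 0.697 and 0.691. Sparcl1 exceeded Spp1 in each Hcy library, with ratios of 8.51, 8.90 and 11.99. A ratio within a library does not depend on its scaling, but shows only that the genes differed unequally.

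**Figure D3:**
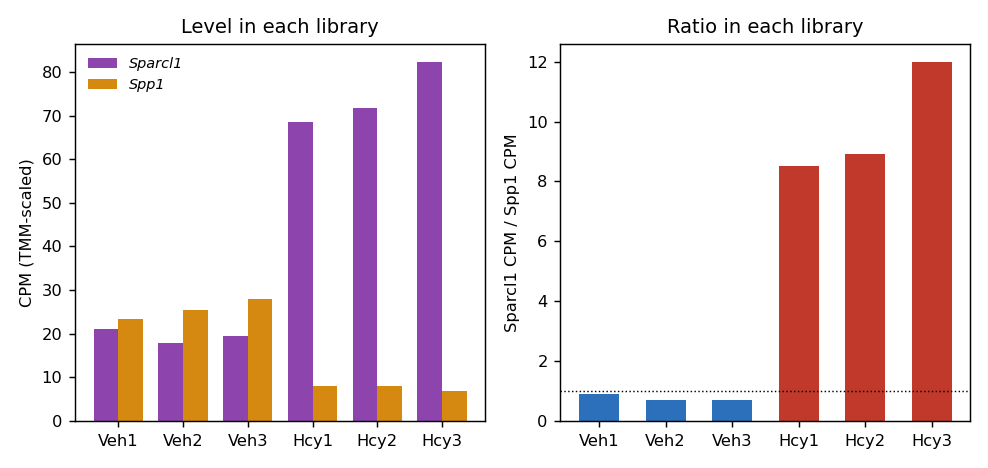
Left, level of Sparcl1 (purple) and Spp1 (orange) in each library, in CPM. Right, the Sparcl1 level divided by the Spp1 level in the same library, with a dotted line at 1. The ratio is below 1 in the 3 Veh libraries and from 8.51 to 11.99 in the 3 Hcy libraries.

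Of the smooth muscle and contractile marker list, 3 of 5 tested genes passed the adjusted p with lower levels in the same Hcy libraries, against 1.01% of all genes. All 6 genes of this list were in the table and 5 were tested, with a summed level of 680 to 708 CPM in Hcy and 1125 to 1354 CPM in Veh. The genes that passed the adjusted p were Tagln (log2 fold change -0.88 ± 0.08, adjusted p = 0.000801), Cnn1 (-1.39 ± 0.14, adjusted p = 0.00177) and Acta2 (-0.64 ± 0.12, adjusted p = 0.0248), and Acta2 lost the adjusted p in 4 of 12 alternatives. Myh11, which marks mature smooth muscle, measured 1.20 ± 0.292 CPM in Hcy and 1.23 ± 0.432 CPM in Veh (SD, n = 3 each), and Myocd had 2 counts in all. Mylk lay the other way, at 6.94 ± 0.534 CPM in Hcy and 5.12 ± 0.682 CPM in Veh (SD, n = 3 each), with no overlap of the groups but an adjusted p of 0.272. The summed level of 9 pericyte markers was 5.55 to 8.06 CPM in Hcy and 3.89 to 5.05 CPM in Veh, and that of 6 fibroblast markers 44.9 to 68.7 and 63.5 to 91.2 CPM. No pericyte, fibroblast or microglia marker passed the adjusted p, and the part of any of these cells in the levels of Spp1 and Sparcl1 was not tested.

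To show the sequence upstream of the pair that differed in opposite directions, the 250 bases before the start of each gene are given from RefSeq on the rat build GRCr8, which is not the build of the count table. RefSeq promoter windows were at hand for 7 of the 10 members, those other than Thbs2, Smoc2 and Mgp. The window of Sparcl1 is chr14:5937234-5937483 on the plus strand and that of Spp1 is chr14:5619805-5620054 on the minus strand. The Spp1 gene in RefSeq runs from 5613569 to 5620695, so its window lies upstream of the start site used but inside the gene's outer bounds. Both are written 5′ to 3′ along the gene, with matches to any of the searched motifs in capitals.
Sparcl1: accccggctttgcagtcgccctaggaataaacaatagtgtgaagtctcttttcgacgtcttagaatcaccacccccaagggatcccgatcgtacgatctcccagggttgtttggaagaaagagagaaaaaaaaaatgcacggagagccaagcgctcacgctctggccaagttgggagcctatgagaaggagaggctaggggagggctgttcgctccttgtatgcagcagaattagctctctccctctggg
Spp1: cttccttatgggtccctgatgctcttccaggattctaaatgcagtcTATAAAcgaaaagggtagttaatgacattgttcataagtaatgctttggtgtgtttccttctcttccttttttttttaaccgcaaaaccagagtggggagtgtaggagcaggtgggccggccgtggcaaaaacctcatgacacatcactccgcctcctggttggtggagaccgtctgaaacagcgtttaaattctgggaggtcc

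The windows were searched on both strands for 4 short motifs. TATAAA is the core of the box bound by the general transcription machinery, GGGCGG is a core bound by Sp1, CCAAT is bound by the factor NF-Y, and TGANTCA is recognised by AP-1. The Spp1 window held TATAAA, 204 to 199 bases before the start used by RefSeq, and the Sparcl1 window held no match. TATAAA occurred in 4 of the 7 member windows, those of Spp1, Tnc, Smoc1 and Postn, and in 12.9% of the 33469 RefSeq rat promoter windows of this length. CCAAT occurred in 2, those of Thbs1 and Smoc1, against 34.0% of all windows, and GGGCGG in 3, those of Thbs1, Tnc and Smoc1, against 30.5%. None of the 7 held TGANTCA, which occurred in 6.34% of all windows. The other TATAAA matches lay 208 to 203 bases before the start in Tnc, 44 to 39 in Postn and 32 to 27 in Smoc1. Whether any match is bound was not tested, and 7 windows are too few to read an excess. The Spp1 window had a GC content of 46.8% and 7 CpG dinucleotides and the Sparcl1 window 52.4% and 11, where the medians of all windows were 51.2% and 5.

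Spp1 and Sparcl1 lie at opposite ends of a cluster of genes for phosphoproteins of bone and tooth, with 314 kb between their facing ends. Of the 19 genes within 250 kb of either or between them, 14 were tested, and Spp1 and Sparcl1 were the only genes called by edgeR. Of the other 12 tested genes, 2 reached 0.05 before adjustment, against 13.4% of all genes tested, and the adjusted p ran from 0.233 to 0.981. The genes between the pair were Mepe, Ibsp, AC129695.1, Dmp1 and Dspp. Mepe and Dspp, which encode matrix proteins of bone and dentin, had 0 counts in every library, and AC129695.1, a long non-coding RNA, had 1 count in all.

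Ibsp (bone sialoprotein) had 4, 3 and 4 counts in Hcy and 0, 0 and 1 in Veh. Dmp1 (dentin matrix protein 1) had 3, 6 and 4 counts in Hcy and 1, 2 and 0 in Veh. In both genes each Hcy library was above each Veh library, but their adjusted p values were 0.233 and 0.374, and the fitted log2 fold changes of 3.08 ± 1.23 and 2.03 ± 0.96 rest on too few counts to serve as bounds. The neighbour of Spp1, Pkd2 (a calcium-permeable channel), measured 56.6 ± 3.83 CPM in Hcy and 59.7 ± 7.08 CPM in Veh (SD, n = 3 each), with a log2 fold change of -0.08 and an adjusted p of 0.816. On the other side of Sparcl1, Nudt9 had a log2 fold change of 0.14 (adjusted p = 0.514) and Hsd17b11 one of 0.11 (adjusted p = 0.687).

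**Figure D4:**
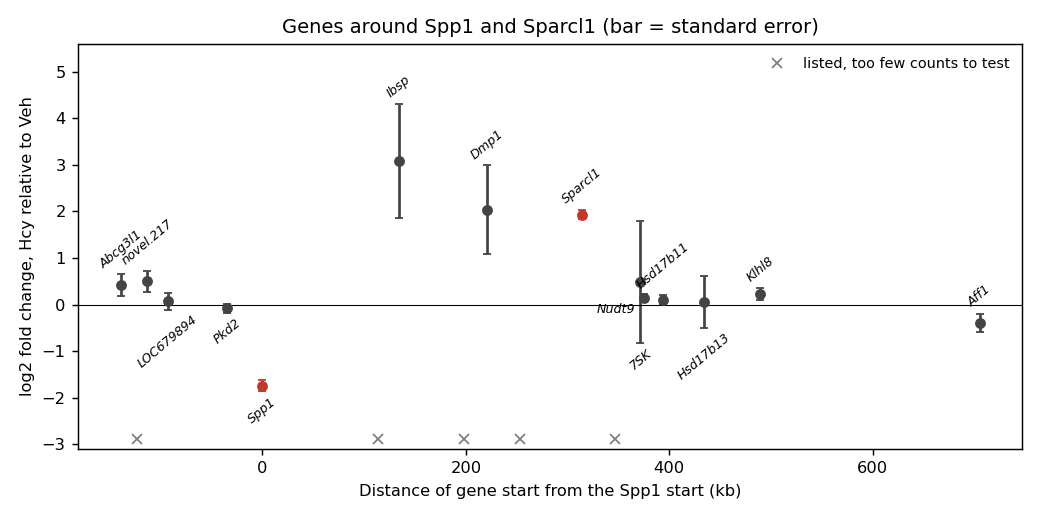
Fitted log2 fold change with its standard error for the 14 tested genes within 250 kb of Spp1 or Sparcl1, against the distance of each gene's start from the start of Spp1 in kb, with crosses at the foot for listed genes with too few counts to test. Spp1 at -1.74 and Sparcl1 at 1.93 (red) are the only called genes, and the long bars of Ibsp and Dmp1 belong to genes with at most 6 counts in any library.

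Of the thrombospondins, Thbs1 was abundant and variable in Veh. It is listed at chr3:109862117-109873466 on the plus strand. Thbs1 measured 3727, 3085 and 2001 CPM in Veh and 2099, 2251 and 2114 CPM in Hcy. Veh replicates 1 and 2 were above all Hcy libraries, and Veh replicate 3 was below all of them, so the groups overlapped. The means were 2938 ± 873 CPM in Veh and 2155 ± 84.0 CPM in Hcy (SD, n = 3 each), with a log2 fold change of -0.45 ± 0.18. Without Veh replicate 3 this value was -0.66 ± 0.07, and the adjusted p passed in that analysis and in none of the other 11. Without Veh replicate 1 it was -0.24.

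The spread of Thbs1 among the Veh libraries was wide. Its highest Veh library was 1.86 times its lowest, a ratio reached by 7.66% of the 11788 genes with a mean of at least 1 CPM, whose median ratio was 1.24. Its highest Hcy library was 1.07 times its lowest. Veh replicate 3 was the lowest Veh library in 40.3% of these genes, against 28.9% for Veh replicate 1 and 30.8% for Veh replicate 2, and was also the lowest of Tnc and Smoc1. Relative to Sparc in the same library, Thbs1 stood at 0.595, 0.554 and 0.309 in Veh and at 0.284, 0.336 and 0.303 in Hcy, so that only Veh replicates 1 and 2 stood apart. Thbs2, listed at chr1:56653938-56683731, 280 kb from Smoc2, had 1, 5 and 0 counts in Veh and 3, 3 and 6 counts in Hcy. The groups overlapped, the fitted log2 fold change was 0.99 ± 1.00, and leaving out single libraries moved it between 0.47 and 2.75.

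Tnc was higher in Hcy in every library. It is listed at chr5:79789671-79874671 on the minus strand. Tnc measured 529, 519 and 386 CPM in Veh and 710.2, 736 and 695 CPM in Hcy. The Hcy libraries were within 1.06 times of each other and all above the Veh libraries, of which replicate 3 was the lowest. The means were 478 ± 79.6 CPM in Veh and 714 ± 20.6 CPM in Hcy (SD, n = 3 each), a ratio of 1.49 and a log2 fold change of 0.58 ± 0.11, below the fold-change threshold. The log2 fold change was 0.45 without Veh replicate 3 and 0.66 without Veh replicate 1. The adjusted p of Tnc passed in 7 of 12 alternatives, and of the analyses leaving out a library it passed in that without Veh replicate 3 alone.

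Postn and Mgp were the remaining members. Postn, listed at chr2:143656793-143688087 on the plus strand, had 3, 5 and 5 counts in Veh and 1, 12 and 7 counts in Hcy. The Hcy libraries lay on both sides of the Veh libraries. The fitted log2 fold change of 0.63 ± 0.78 became -0.12 without Hcy replicate 2, so no direction could be assigned at this depth. Mgp, listed at chr4:170856751-170860225 on the minus strand, measured 1.54, 1.47 and 1.94 CPM in Veh and 3.02, 2.82 and 2.33 CPM in Hcy, from 23 to 42 counts per library. Each Hcy library was above each Veh library. The means of 1.65 ± 0.253 CPM in Veh and 2.72 ± 0.355 CPM in Hcy (SD, n = 3 each) gave a log2 fold change of 0.72 ± 0.25, which did not pass the adjusted p in any alternative.

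The remaining genes of the matricellular families were read from a list of 31 genes, which also covered CCN proteins, other thrombospondins and tenascins, galectins and fibulins. Of these, 30 were in the table, 21 were tested and 6 had 0 counts in every library. None was called by edgeR or by DESeq2, against 0.486% of all genes with edgeR. Before adjustment, 8 reached 0.05 in edgeR, 6 with higher and 2 with lower levels in Hcy, against 7.44% higher and 5.95% lower of all genes. The median log2 fold change was 0.13, against -0.02 for all genes. Passing the adjusted p in edgeR were 2 genes, both higher, against 1.32% of all genes. Ccn3, which encodes a CCN protein that restrains smooth muscle growth, rose from 305 ± 24.2 CPM in Veh to 599 ± 39.6 CPM in Hcy (SD, n = 3 each), with a log2 fold change of 0.97 ± 0.08 and an adjusted p of 0.000801. This value lay just under the fold-change threshold and passed it without Hcy replicate 2, at 1.02, and without Veh replicate 1, at 1.04.

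Fstl1, which encodes a secreted glycoprotein with a follistatin-like domain related to that of SPARC, rose from 374 ± 24.4 to 487 ± 9.28 CPM, with a log2 fold change of 0.38 ± 0.07 and an adjusted p of 0.0261, which passed in 7 of 12 alternatives. The most abundant gene of the list, Ccn2, which encodes connective tissue growth factor, measured 3815 ± 257 CPM in Veh and 3304 ± 170.4 CPM in Hcy (log2 fold change -0.21 ± 0.07, adjusted p = 0.224). Its relative Ccn1 had a log2 fold change of -0.13 (adjusted p = 0.594). Ecm1, which encodes a secreted matrix glycoprotein, had a log2 fold change of 0.42 ± 0.11 (adjusted p = 0.0933), and the galectin gene Lgals1 one of -0.31 (adjusted p = 0.419). The adjusted p passed in 4 of 12 alternatives for Ecm1 and in 1, the fit without Veh replicate 3, for Ccn2. It passed in none for Ccn1 and Lgals1.

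Receptors for matricellular proteins were read from a list of 28 genes, mainly integrin subunits and other cell surface receptors. Of these, 27 were in the table and 22 were tested. Called by edgeR was 1 gene, higher in Hcy, against 0.253% of all genes called higher, and the median log2 fold change was 0.04, against -0.02 for all genes. The called gene was Vcam1, at 3.44 ± 0.0555 CPM in Veh and 7.71 ± 1.22 CPM in Hcy (SD, n = 3 each). Vcam1 encodes the leukocyte adhesion molecule, a ligand of alpha-4 integrins rather than a receptor for a member. The log2 fold change of Vcam1 was 1.16 ± 0.18 with an adjusted p of 0.0129. The call was lost when any of Hcy replicates 1 and 3 or Veh replicates 1 and 2 was left out, with adjusted p values up to 0.0799. Cd44, the hyaluronan receptor that also binds osteopontin, measured 26.9, 27.5 and 26.4 CPM in Veh and 14.1, 13.8 and 15.2 CPM in Hcy. It fell in every Hcy library, with a log2 fold change of -0.91 ± 0.10 and an adjusted p of 0.00235 that passed in all 12 alternatives, and was named after its values had been seen. The most abundant receptor genes did not pass the adjusted p, with log2 fold changes of 0.17 (adjusted p = 0.237) for the integrin subunit Itgb1, 0.04 (adjusted p = 0.873) for Calr, a chaperone that binds thrombospondin at the cell surface, and 0.02 (adjusted p = 0.936) for the fibronectin receptor subunit Itga5. Stab1, a scavenger receptor that takes up SPARC, stood at 0.17 (adjusted p = 0.623), and the endothelial phosphatase Ptprb at -0.31 (adjusted p = 0.592). Leaving out single libraries moved Stab1 between 0.034 and 0.28 and Ptprb between -0.53 and -0.14. The adjusted p of Ptprb passed in 1 of 12 alternatives, the fit without Veh replicate 3, and that of Stab1 in none.

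Processing enzymes and regulators of the members were read from a list of 37 genes, all in the table, of which 34 were tested. Called was 1 gene, higher in Hcy, against 0.253% of all genes. The adjusted p was passed by 6, 1 higher and 5 lower, against 1.32% and 1.01% of all genes, and the median log2 fold change was 0.04. The called gene was Mmp9, a gelatinase that cleaves osteopontin among other matrix proteins, which rose from 0.878 ± 0.371 CPM in Veh to 9.51 ± 2.73 CPM in Hcy (SD, n = 3 each), with a log2 fold change of 3.41 ± 0.33 and an adjusted p of 0.00136. The genes that fell and passed the adjusted p without reaching the fold-change threshold were named after their values had been seen. They were the shear-responsive transcription factors Klf4 (-0.95 ± 0.11, adjusted p = 0.00415) and Klf2 (-0.52 ± 0.08, adjusted p = 0.0129), the TGF-beta inhibitor Smad7 (-0.65 ± 0.12, adjusted p = 0.0247), the growth factor Bmp4 (-0.43 ± 0.07, adjusted p = 0.0207) and the procollagen protease Tll1 (-0.84 ± 0.18, adjusted p = 0.0489).

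Of these 5 regulators, Klf4 passed the adjusted p in all 12 alternatives and the fold-change threshold without Hcy replicate 3, at -1.05, and the adjusted p was passed by Klf2 in 8, Smad7 and Bmp4 in 7 and Tll1 in 5. Abundant genes of the list, the lysosomal protease Ctsb, the transglutaminase Tgm2, the growth factor Tgfb2 and the BMP receptor Acvrl1, had log2 fold changes from -0.15 to 0.20 and adjusted p values from 0.144 to 0.907. The adjusted p of Ctsb and of Tgm2 passed in 1 of 12 alternatives, the fit without Veh replicate 3, and that of Tgfb2 and Acvrl1 in none.

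**Figure D5:**
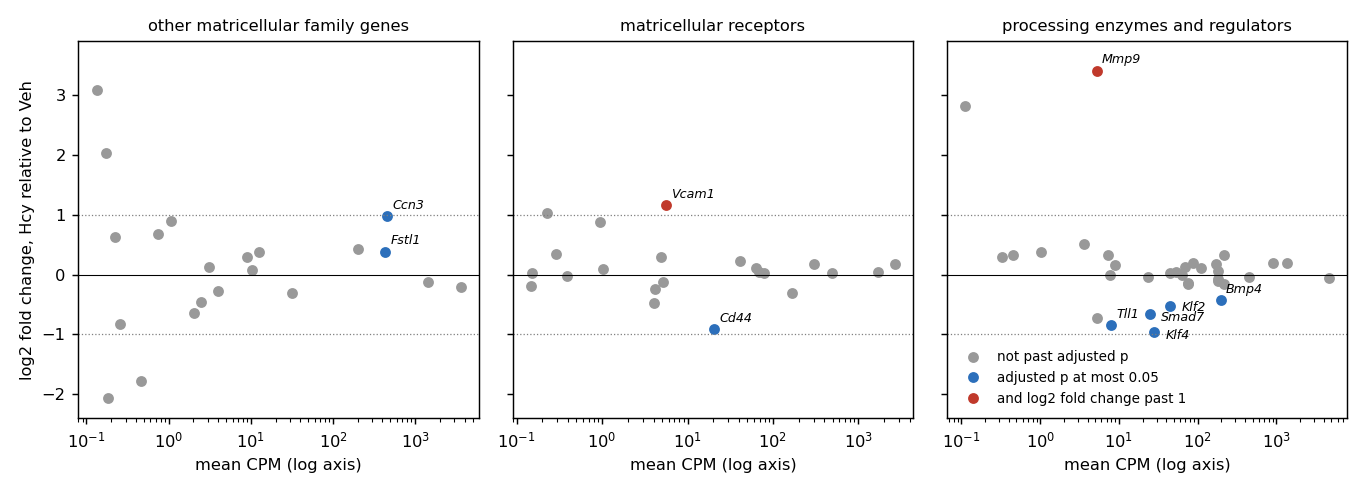
Log2 fold change, Hcy relative to Veh, against mean CPM over the 6 libraries on a log axis, for the tested genes of 3 lists, the other matricellular family genes (21 genes), receptors (22) and processing enzymes and regulators (34). Red points pass the adjusted p and the fold-change threshold, blue points pass the adjusted p alone, and most points lie near 0.

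Genes whose pattern over the 6 libraries was most like that of Sparcl1 or Spp1 were ranked by the root mean square difference of log2(CPM + 0.5), centred on each gene's mean, among genes with a mean of at least 1 CPM. The likeness reflects mainly the shared difference between the groups. Closest to Sparcl1 were LOC103690108, at a difference of 0.134, Prss12 at 0.150 and Dmtn at 0.211. LOC103690108 is annotated as a class I histocompatibility gene, a family whose near-identical copies can share reads, so its level is uncertain. It measured 6.30 to 8.78 CPM in Veh and 28.9 to 30.7 CPM in Hcy. Prss12 encodes neurotrypsin, a serine protease, and measured 0.510 to 0.969 CPM in Veh and 3.45 to 4.57 CPM in Hcy. Dmtn encodes the actin-bundling protein dematin and measured 14.7 to 15.4 CPM in Veh and 44.9 to 50.0 CPM in Hcy. Closest to Spp1 were Fam111a, which encodes a nuclear protease, at 0.134, the tyrosine kinase gene Syk at 0.139 and an unannotated transcript at 0.149. Fam111a measured 424 to 491 CPM in Veh and 156 to 169 CPM in Hcy, and Syk measured 16.8 to 19.9 CPM in Veh and 5.24 to 5.49 CPM in Hcy.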

How the data were processed

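Poly(A) RNA-seq libraries of 3 Hcy and 3 Veh rBMEC cultures were analysed, grouped by their labels. The deposited table holds the authors' read counts per gene, not normalized, with gene positions and lengths. The submitters' processing notes name HISAT2 2.2.1, featureCounts 2.0.6, StringTie 2.2.3, fastp, Cufflinks and DESeq2 1.42.0, and the use of strand in counting is not given in the sources used here. The study's methods name mRatBN7.2, but positions in the table reach 282724300 on chromosome 1 and are given as listed, with no build. Reads of overlapping genes or near-identical copies can have been lost or split. A deposited table of the authors' own comparison was not used, since it holds their fold changes and p-values beside counts scaled by size factors.

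Counts were analysed in R 4.3.3 with edgeR 4.0.16 (TMM factors, quasi-likelihood test, condition as the only term), on the 14603 genes with at least 10 counts over the 6 libraries. A call needed a p of 0.05 or less after Benjamini-Hochberg adjustment and a log2 fold change of 1 or more in either direction. Standard errors were derived from the coefficient and its F statistic. The scripts were tested on simulated data. Alternatives were DESeq2 1.42.0, its size factors, library totals alone, no filter, filterByExpr, the replicate number as a block, no fold-change threshold and leaving out each library.

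The members and gene lists were chosen with earlier results of these data known. Genes named were all members, the called genes of each list filled up to 6 by mean CPM, the 3 genes most like Sparcl1 and Spp1, and the genes around them. Cd44, Klf4, Klf2, Smad7, Bmp4 and Tll1 were named after their values were seen, as were the marker genes given with values. A gene that this rule names is not reported here. Protein sequences were not used here.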

Additional observations from a re-analysis of the deposited data

How the results depend on the processing

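The 71 genes called over all genes became 109 without a filter on low counts, 341 without the fold-change threshold and 39 to 112 when each library was left out. Of the 71 genes, 66 were shared with the 112 called without Veh replicate 3. Called members numbered 2 in every alternative but the one without the fold-change threshold, where they numbered 4. The members were chosen on this contrast, so nothing is read from these member counts. Without that threshold, called genes numbered 2 among other matricellular family genes, 2 among receptors and 6 among enzymes and regulators. Leaving out libraries gave 0 to 1, 0 to 1 and 1 to 2 in these lists. In the order of members in Veh, 8 of 10 places were kept without Veh replicate 2, where Thbs2 and Smoc2 exchanged places.

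Over 53 named genes and 625 values under alternatives, 604 kept their direction and their call or lack of a call. Of the others, 8 lost and 3 gained the call, and 10 reversed. A kept state covers the call alone, since the adjusted p changed sides in some of these values, such as those of Tnc and Thbs1. The lost calls were those of Vcam1 and the unannotated transcript like Spp1, whose log2 fold changes stayed past the fold-change threshold. All the reversals came on leaving out a library, and none was past the threshold. The ranges over single left-out libraries, as log2 fold changes, were -0.12 to 1.10 for Postn, -0.0078 to 0.059 for Calr, -0.020 to 0.072 for Itga5, -0.080 to 0.026 for Tgfb2, -0.044 to 0.18 for LOC679894, -0.10 to 0.82 for 7SK and -0.43 to 0.34 for Hsd17b13. The cause was not tested.

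A fit with replicate block called 82 genes, 63 of them among the 71, and called the same 2 members. Deviations of same-numbered libraries correlated at 0.0237, 0.166 and 0.0581, and Hcy replicate 1 correlated best with Veh replicate 3, so the numbers were not taken as a pairing. Of Postn, Thbs2 and Smoc2, the depth allowed no direction to be read.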
